A study of Gadus morhua with 47 samples.

Results

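The response of Atlantic cod (Gadus morhua) liver to ethynylestradiol (EE2) at 1 µM was read from 14 libraries of precision-cut liver slices, chosen by their titles from the 47 libraries of the study. They are 6 slices with EE2 1 µM and 8 slices with the vehicle dimethyl sulfoxide (DMSO). The test of this contrast was made in a single fit over all 47 libraries. A liver slice is a thin section of the organ kept alive in culture, with its cell types in place. The number in a title is the number of the fish, so that 6 fish gave both slices: the females 3, 6 and 8 and the males 1, 4 and 5. Fish 2 and 7, both male, gave a DMSO slice but no EE2 1 µM slice that was analysed here. The other slices of the same 8 fish, 5 male and 3 female, received EE2 at 10 nM, benzo[a]pyrene (BaP) at 10 nM or 1 µM, or a mixture (Mix) of BaP and EE2 with each at 10 nM or at 1 µM. The age and strain of the fish, the length of exposure and the reproductive stage were not stated in the labels.

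EE2 is a synthetic form of the hormone estradiol that binds the nuclear estrogen receptor, which then acts on the transcription of its target genes. In fish, liver is the organ that makes egg yolk precursors and eggshell proteins when estrogen is high, as it is in females that are maturing eggs, and male fish carry the same genes and can be made to express them by estrogen. The deposited files name each feature by an Ensembl cod transcript identifier and a length, and the name table at hand matched 0 of the 22100 identifiers. Which of the transcripts below encode such proteins was therefore not determined, and no liver or other cell type marker could be checked. Transcripts are described by their levels and their coding length, with a rank from 1 for the largest rise to 62 for the smallest.

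Mapped read segments per library, in M (mega), ranged from 45.3 to 63.3 with EE2 1 µM and from 36.6 to 58.6 with DMSO. Levels are given as CPM, the count set against the size of its library. At this depth, before TMM scaling of the library sizes, 3 counts were worth 0.0474 to 0.0663 CPM with EE2 1 µM and 0.0512 to 0.082 CPM with DMSO. The levels below use the scaled sizes, so these limits shift with the factor of each library. One library stood apart: the DMSO slice of fish 2 had a TMM scaling factor of 0.678, against 0.898 to 1.27 in the other 13. The number of rises was 61 without it. In RNA from whole slices, a change in the number of cells of a type and a change in the RNA per cell cannot be told apart.

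With EE2 1 µM, 62 of 17824 transcripts rose against DMSO, which is 0.348% of those tested, and 0 fell (quasi-likelihood test of edgeR, Benjamini-Hochberg adjusted p under 0.05, fish as a block). The fit held all 47 libraries, so slices with other treatments also set its fish terms and its spread. The rises ranged from 0.68 to 8.79 on the log2 scale, with a median of 3.24, while the median over all tested transcripts was -0.01 and 48% of them were above 0. Of the 62, 32 rose at least 8-fold and 30 by less, with medians of 5.02 and 1.25. The smallest adjusted p of a lower transcript in edgeR was 0.0584. Past the adjusted threshold the response in this edgeR fit was thus one-sided. Other edgeR settings called a few falls, 2 with upper quartile factors and 6 without the 4 libraries that stood apart by their TMM factor. At an unadjusted p under 0.05 there were 386 higher and 376 lower transcripts, together 762 of 17824. That is a smaller share than this threshold alone would give, so no direction is read from the weaker differences. DESeq2 called 76 rises and 4 falls, and limma with fish as a random effect called 38 rises and 0 falls. The number of rises fell to 25 when the libraries of these groups alone were fitted and to 16 without the fish block, and all 16 were among the 62.

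The rises were grouped by the level of the transcript with DMSO. Of the 416 tested transcripts with a mean under 0.1 CPM in DMSO slices, 17 rose, or 4.09%, and all 17 rose at least 8-fold. The share was 0.351% between 0.1 and 1 CPM, 0.273% between 1 and 10 CPM, 0.213% between 10 and 100 CPM and 0.169% at 100 CPM or more. A transcript had to reach the expression filter, so one that was near-silent with DMSO could be tested only if it was higher in other slices. The share called in the lowest class, the sizes there and the larger rises at low base levels are in part set by that filter, and are given as a description. The median log2 fold change of the rises was 5.03 in the lowest class, then 4.60, 1.50, 1.29 and 0.80 in order of base level. Over all tested transcripts the median absolute change also fell over most of these classes, at 0.68, 0.32, 0.16, 0.12 and 0.17, so that low transcripts varied more whether or not they were called. Read by size, the 17 rises of 32-fold or more had a median DMSO level of 0.037 CPM, the 15 of 8-fold to 32-fold 0.111 CPM and the 4 of 4-fold to 8-fold 0.864 CPM. The 18 rises of 2-fold to 4-fold had a median DMSO level of 6.74 CPM and the 8 smaller ones 45.1 CPM.

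**Figure D1:**
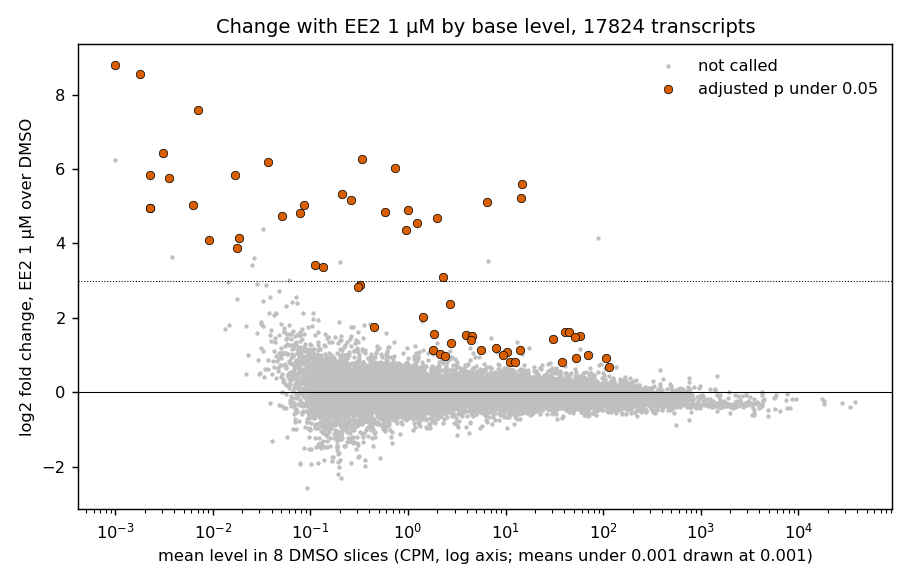
Log2 fold change with EE2 1 µM over DMSO (vertical axis) against the mean level over 8 DMSO slices in CPM (horizontal log axis), with each grey point a transcript not called and each orange point 1 of the 62 rises. The dotted line marks 8-fold, and the called rises run from the upper left, where the DMSO level was under 0.1 CPM, to rises of under 2-fold at 100 CPM or more.

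Among the 17 rises from under 0.1 CPM were the 4 largest of all. The transcript of 690 bases, rank 1, had 0 counts in all 8 DMSO slices and 435 counts over the 6 EE2 1 µM slices. Its level with EE2 1 µM was lowest at 0.326 CPM, had a median of 1.12 and was highest at 3.44 CPM, so the groups did not overlap. Against a limit of 3 counts over all DMSO slices it was at least 170-fold higher (edgeR adjusted p = 6.21e-06). The transcript of 321 bases, rank 2, had 870 counts over the EE2 1 µM slices and 1 count over the DMSO slices. The ratio of pooled levels was 1022, with an exact 95% interval from 183 to 40427. That interval covers counting error only, and is too narrow if both mates of a fragment were counted, which the labels do not state. The groups did not overlap for this transcript either, although fish 8 had 0.0251 CPM with EE2 1 µM and 0.0143 CPM with DMSO, both under the level of 3 counts. Fish 3 reached 9.28 CPM. The transcript of 930 bases, rank 3, was above 0 in 5 EE2 1 µM slices, up to 16 CPM in fish 3, and at 0 in the EE2 1 µM slice of fish 8. Neither passed in limma, with an adjusted p of 0.178 for rank 2 and 0.625 for rank 3. The transcript of 492 bases, rank 4, rested on 1 fish: fish 1 held 89.9% of its summed EE2 1 µM level, and 3 fish had 0 counts in both slices. Neither DESeq2 nor limma called it, with an adjusted p of 0.982 in each. It was also higher with BaP and no EE2, though not past the threshold, as given below. All these levels were low, and 7 of the 62 rises had 1 to 3 counts over the 8 DMSO slices.

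The most abundant of the rises was ENSGMOT00000018724.1, with a coding length of 4902 bases, rank 11. Its level with EE2 1 µM was lowest at 30.5 CPM in fish 5, had a median of 669 and reached 9751 CPM in fish 8. With DMSO it was lowest at 5.08 CPM, had a median of 8.96 and was highest at 52.9 CPM in fish 3. The groups overlapped only through those slices, since the EE2 1 µM slice of fish 5 lay below the DMSO slice of fish 3 and above the other 7. Within each fish the EE2 1 µM slice was higher, by 7.32 on the log2 scale in fish 1, 5.12 in fish 3, 4.82 in fish 4, 2.58 in fish 5, 3.65 in fish 6 and 9.43 in fish 8. The fitted change was 5.60 ± 0.88 log2 units (SE, edgeR adjusted p = 0.000159). Fish 8 held 74.4% of the level summed over the EE2 1 µM slices, and without that fish the change was 5.16 log2 units (edgeR adjusted p = 0.000654). When the EE2 1 µM and DMSO libraries were fitted alone its edgeR adjusted p was 0.0623. Per kilobase of coding length it averaged 446 CPM with EE2 1 µM and 2.99 CPM with DMSO.

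ENSGMOT00000013453.1, with a coding length of 969 bases, rank 13, also started above 10 CPM on average. Its level with EE2 1 µM was lowest at 9.73 CPM in fish 5, had a median of 278 and was highest at 669 CPM in fish 8. With DMSO its lowest value was 0.213 CPM, its median 1.49 and its highest 90.1 CPM, in fish 6. The mean DMSO level of 14.3 CPM ± 30.9 (SD, n = 8) thus came from few slices, the 2 highest being those of the females 6 and 3 at 90.1 and 12.1 CPM. All 6 fish were higher with EE2 1 µM, by 9.17 on the log2 scale in fish 1 and 8.94 in fish 8 but by 1.81 in fish 6, whose DMSO level was already high. The fitted change was 5.23 ± 1.08 log2 units (SE, edgeR adjusted p = 0.00815). Without fish 1 it was 4.24 log2 units and missed the threshold, at an edgeR adjusted p of 0.063. The call was also lost when the EE2 1 µM and DMSO libraries were fitted alone (edgeR adjusted p = 0.165), in the 6 fish with both slices (0.167), without the fish block (0.675) and, narrowly, without fish 3 (0.05 after rounding).

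Wide spread over fish was also seen from lower base levels. The transcript of 1920 bases, rank 15, averaged 421 CPM ± 652 (SD, n = 6) with EE2 1 µM and 6.43 CPM ± 14.4 (SD, n = 8) with DMSO. Fish 8 again held most of it, 66.9% of the summed EE2 1 µM level, and its change was 10.25 on the log2 scale against 1.23 in fish 5. The transcript of 3732 bases, rank 7, averaged 224 CPM ± 317 (SD, n = 6) with EE2 1 µM and 0.738 CPM ± 0.473 (SD, n = 8) with DMSO. It had the largest spread over fish among the 62, with changes from 1.20 in fish 5 to 11.09 in fish 8 and an SD of 3.80. Both kept their direction in every fit, but neither passed, at edgeR adjusted p = 0.507 for rank 15 and 0.199 for rank 7, when fitted from the EE2 1 µM and DMSO libraries alone. In limma the adjusted p was 0.0863 for rank 15 and 0.173 for rank 7, and rank 15 also missed the threshold in edgeR without fish 1, at 0.161, and without the fish block, at 0.253.

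A contrasting case, chosen after its values were seen, was the transcript of 1188 bases, rank 21. With EE2 1 µM it was lowest at 8.84 CPM, had a median of 20.4 and was highest at 30.4 CPM. With DMSO it was lowest at 0.293 CPM, had a median of 0.494 and was highest at 0.939 CPM, so every EE2 1 µM slice lay far above every DMSO slice. Its change per fish ran from 4.07 to 6.07 on the log2 scale, the smallest spread among the rises of 8-fold or more, with an SD of 0.87. The fitted change was 4.85 ± 0.40 log2 units (SE), and its edgeR adjusted p, 1.43e-10, was the smallest of the 62.

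**Figure D2:**
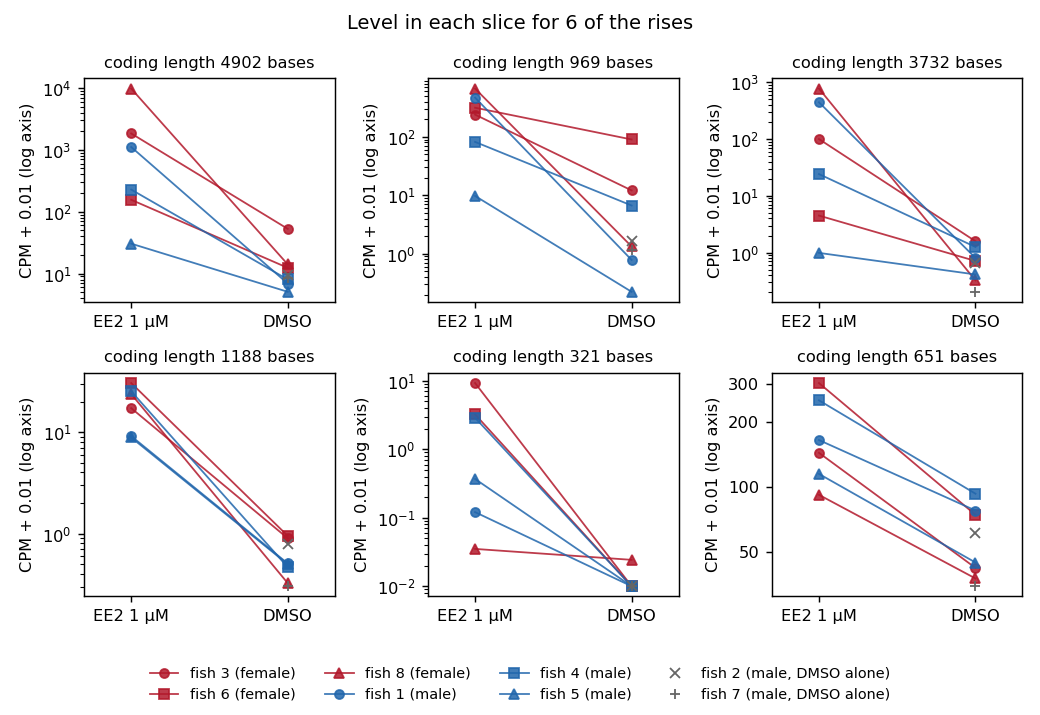
Level in each slice, as CPM + 0.01 on a log axis, for 6 of the rises named by their coding length, with EE2 1 µM left and DMSO right and a line joining the slices of 1 fish (red for females, blue for males, grey marks for fish 2 and 7 with a DMSO slice alone). The lines of the 1188 base transcript are close to parallel with EE2 1 µM levels of 8.84 to 30.4 CPM, while those of the 4902 base transcript fan out to between 30.5 and 9751 CPM.

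The 30 rises under 8-fold were mostly of transcripts that DMSO slices already expressed. The transcript of 651 bases and rank 42 was lowest at 92 CPM, had a median of 154 and was highest at 303 CPM with EE2 1 µM. With DMSO its lowest value was 34.7 CPM, its median 52.9 and its highest 93.1 CPM. Only the EE2 1 µM slice of fish 8 and the DMSO slice of fish 4 crossed, and every fish was higher, by 1.08 to 2.03 on the log2 scale. The fitted change was 1.51 ± 0.19 log2 units (SE, edgeR adjusted p = 1.94e-06), and it passed in all 19 other settings tried. Transcripts of 642 and 645 bases, rank 38 and 39, had log2 fold changes of 1.61 each. Their log2 levels went with that of the 651 base transcript over the 47 libraries at a correlation of 0.996 and 0.998, and reads may have been shared among them.

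Lower in level, the transcript of 249 bases, rank 53, averaged 4.3 CPM ± 0.599 (SD, n = 6) with EE2 1 µM and 2.11 CPM ± 0.553 (SD, n = 8) with DMSO. The groups did not overlap, with a lowest EE2 1 µM value of 3.61 CPM and a highest DMSO value of 3.29 CPM. It rose by 1.02 ± 0.16 log2 units (SE, edgeR adjusted p = 0.000114), and the adjusted p was 0.0565 when the EE2 1 µM and DMSO libraries were fitted alone. At the top of the base levels, 2 of the 1184 transcripts at 100 CPM or more rose. The transcript of 3273 bases, rank 57, averaged 188 CPM with EE2 1 µM and 107 CPM with DMSO, and rose by 0.92 ± 0.16 log2 units (SE, edgeR adjusted p = 0.00109). The smallest rise, of the transcript of 1377 bases, rank 62, averaged 173 CPM ± 57.2 (SD, n = 6) with EE2 1 µM and 115 CPM ± 92.5 (SD, n = 8) with DMSO. It was lower in fish 4 by 0.33 on the log2 scale, its edgeR adjusted p was 0.0449, and 15 of 19 other settings ended its call.

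Size alone did not decide the call. Of 41 tested transcripts with a fitted level at least 8-fold higher, 9 did not pass, of which 7 had a mean under 1 CPM with DMSO. The other 2, chosen after their values were seen, had higher DMSO levels. The transcript of 1074 bases averaged 980 CPM ± 1108 (SD, n = 6) with EE2 1 µM and 89.1 CPM ± 204 (SD, n = 8) with DMSO, a fitted difference of 4.15 ± 1.02 log2 units (SE, edgeR adjusted p = 0.0592). Its DMSO level was 592 CPM in fish 6 and at most 57.7 CPM in the other 7 slices, and its change was 0.49 on the log2 scale in fish 6 against 8.08 in fish 1 and 7.57 in fish 8. The transcript of 1401 bases had a DMSO level of 46.2 CPM in fish 3 and at most 3.25 CPM in the other 7, and its edgeR adjusted p was 0.117.

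Long transcripts were frequent among the large rises. Of the 32 rises of 8-fold or more, 7 had a coding length of at least 4400 bases, between 4485 and 5112. Of all 17824 tested transcripts 673 were that long, or 3.78%, and of the 30 smaller rises 0 were. This length limit was set after the lengths had been seen, so the counts are a description. The median coding length was 1089 bases for the large rises, 1160 for the smaller ones and 1137 for all tested, so the large rises as a whole were not longer. Of the 7, those of 5052, 4926 and 4971 bases had log2 levels correlated at 0.989 to 0.995 over the 47 libraries. The transcripts of 987 and 1050 bases, rank 18 and 19, had equal counts in 44 of 47 libraries. The 62 rises may therefore stand for fewer than 62 genes, and the counting could have split reads between such copies.

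The response differed between fish more in the large rises than in the smaller ones. For each fish the change was taken as the log2 CPM of its EE2 1 µM slice minus that of its DMSO slice. The SD of this change over the 6 fish had a median of 2.1 for the rises of 8-fold or more, from 0.87 to 3.80, and of 0.55 for the smaller rises, from 0.34 to 1.81. Over all tested transcripts the median SD was 0.38, and it was 1.11 for those under 0.1 CPM with DMSO and 0.25 for those at 10 to 100 CPM, so part of the contrast in spread goes with base level. For the large rises, the SD of log2 CPM over the same 6 fish had a median of 2.08 with EE2 1 µM and 0.89 with DMSO, and it was larger with EE2 1 µM in 28 of 32. For 17 of the large rises the DMSO mean was under 0.1 CPM, and counts of 0 hold the SD down there. At rank 1 the DMSO SD was 0.00. This contrast is therefore in part set by that floor. For the smaller rises the median SD of log2 CPM was 0.68 with EE2 1 µM and 0.62 with DMSO, and it was larger with EE2 1 µM in 22 of 30. A single fish held more than 50% of the summed EE2 1 µM level in 15 of the 32 large rises and in 1 of the 30 smaller ones. Neither this count nor that of a larger SD with EE2 1 µM was made over all tested transcripts. Both are therefore a description of the rises.

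Direction was more uniform than size. The EE2 1 µM slice was higher in 6 of 6 fish for 44 of the 62 rises, 17 of the 32 large and 27 of the 30 smaller ones, against 2.65% of all tested transcripts. The remaining 18 comprised 8 that were lower in 1 fish and 10 with 0 counts in both slices of some fish. The lower values of those 8 were small, from -0.08 to -0.69 on the log2 scale, and lay in fish 8 for 4 of them, in fish 5 for 3 and in fish 4 for 1. The lowest EE2 1 µM slice lay above the highest of the 8 DMSO slices for 12 of the 62, 8 large and 4 smaller, against 0.0842% of all tested transcripts. These shares come from the contrast that selected the rises, and are given as a description.

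Averaged over the 62 rises, the change was 3.03 on the log2 scale in fish 1, 2.91 in fish 3, 2.85 in fish 4, 1.81 in fish 5, 2.52 in fish 6 and 2.41 in fish 8. Over the large rises it ran from 2.41 in fish 5 to 4.69 in fish 1, with a mean of 3.74 ± 0.81 (SD, n = 6). Over the smaller rises it ran from 1.16 in fish 5 to 1.62 in fish 4, with a mean of 1.36 ± 0.18 (SD, n = 6). By these means fish 5 was the lowest in both classes, and it was the highest fish for 0 of the 32 large rises. By medians fish 8 was the lowest instead, at 1.27 over the 62 and 2.07 over the large rises, against 1.57 and 2.5 in fish 5. Fish 5 still had 57 of the 62 higher with EE2 1 µM, and 14 changed by at least 8-fold in it. In fish 8, 49 were higher and 16 changed by at least 8-fold.

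**Figure D3:**
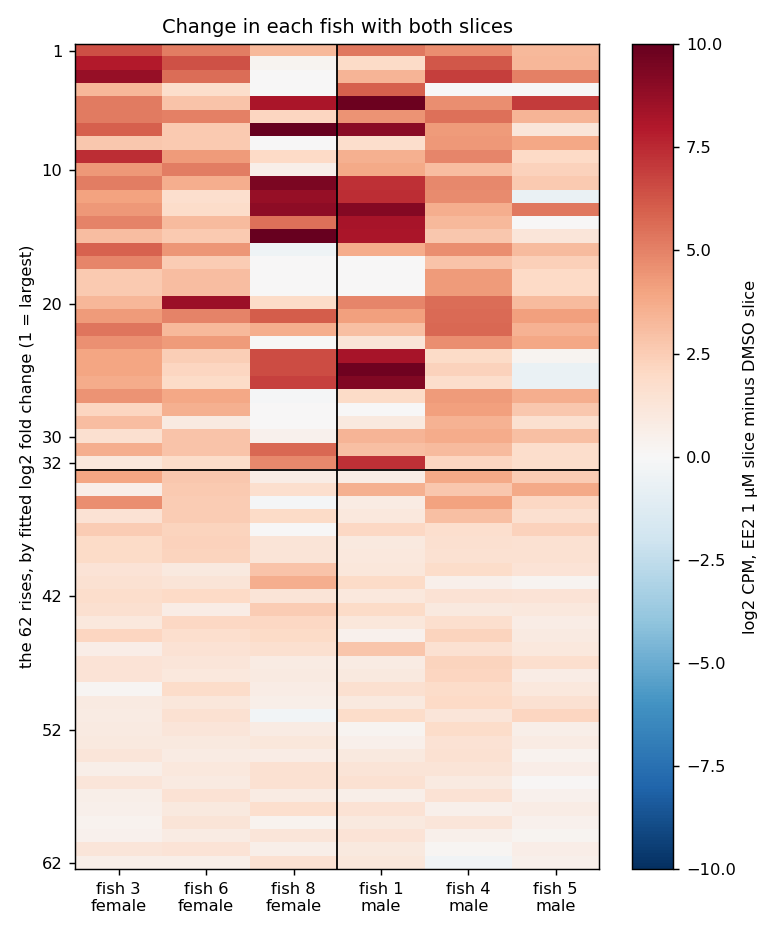
Change of each of the 62 rises (down the page, by fitted log2 fold change, largest at the top) in each fish with both slices (across, females left, males right), with colour giving log2 CPM of the EE2 1 µM slice minus the DMSO slice. The horizontal line parts the 32 rises of 8-fold or more from the 30 smaller ones; nearly all cells are red, the lower ones pale and even and the upper ones uneven, with fish 8 near 0 for many of them.

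Fish 8 was uneven across the large rises. It had the highest change of the 6 fish for 6 of the 32 large rises and alone the lowest for 13. For some others it tied for the lowest with fish that also had 0 counts in both slices. Of the 32, 13 changed by less than 0.5 in it on the log2 scale. Many of these are at the floor, since 9 of the 62 rises had 0 counts in both slices of fish 8. Split by the fish with the highest change, which was done after the values were seen, 14 of the 32 were highest in fish 1 or 8 and 18 in another fish. The 14 were the more abundant ones, with a median of 33.4 CPM with EE2 1 µM and 0.846 CPM with DMSO, and they held 5 of the 7 long transcripts. The 18 had a median of 1.3 CPM with EE2 1 µM and 0.0129 CPM with DMSO. The split itself fixes which fish is high in each part, so no change per fish is read from it.

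The levels of both parts were read in EE2 10 nM and Mix 1 µM slices, whose values did not enter the split. These slices come from the same fish, and their counts entered the filter and the fit that called the rises. They are therefore not an independent reading, and the levels are given as a description. With EE2 10 nM the 14 transcripts had a median of 39.4 CPM in fish 8 and 1.34 to 20.7 CPM in the other 6 fish. Fish 1, which also defined the 14, was at 16.4 CPM, below fish 2 at 20.7 CPM. With Mix 1 µM they had a median of 224 CPM in fish 8 and of 0.797 to 90.8 CPM in the other 5 fish. The 18 transcripts had a median of 0 CPM in fish 8 with both EE2 10 nM and Mix 1 µM, where 6 and 4 of them had any count. Fish 7, which had no EE2 1 µM slice, also had a median of 0 CPM for the 18 with EE2 10 nM, with 5 of them above 0, and 7.98 CPM for the 14. With Mix 10 nM the 18 had a median of 0.0174 CPM in fish 7, with 10 of them above 0. In fish 8 the median with Mix 10 nM was 0 CPM, with 7 above 0. With BaP 10 nM, which holds no EE2, the 14 had a median of 0.153 CPM in fish 8, below that of fish 3, 4 and 6. The Mix 1 µM slice of fish 8 was 1 of the 4 libraries that stood apart by their TMM factor.

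The summed level of the 62 rises was highest in fish 8. With EE2 1 µM it was 4462 CPM in fish 1, 4373 in fish 3, 2379 in fish 4, 1211 in fish 5, 3042 in fish 6 and 15017 CPM in fish 8. With DMSO it lay between 508 and 1002 CPM over 8 slices, below every EE2 1 µM slice. The ratio within a fish was 29.6 in fish 8, 5.51 in fish 3, 5.44 in fish 1, 3.14 in fish 6, 2.37 in fish 4 and 1.92 in fish 5. In fish 8, 64.9% of the sum came from ENSGMOT00000018724.1 alone, and the 62 together took 1.5% of the TMM-scaled library size. With EE2 1 µM the large rises summed to 2827 CPM in fish 1, 3004 in fish 3, 476 in fish 4, 89 in fish 5, 641 in fish 6 and 13678 CPM in fish 8. In fish 1, 3 and 8 they made up most of the sum, and in fish 4, 5 and 6 the smaller rises did. The smaller rises summed to between 1122 and 2402 CPM with EE2 1 µM and between 482 and 973 CPM in the DMSO slices of the same fish.

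**Figure D4:**
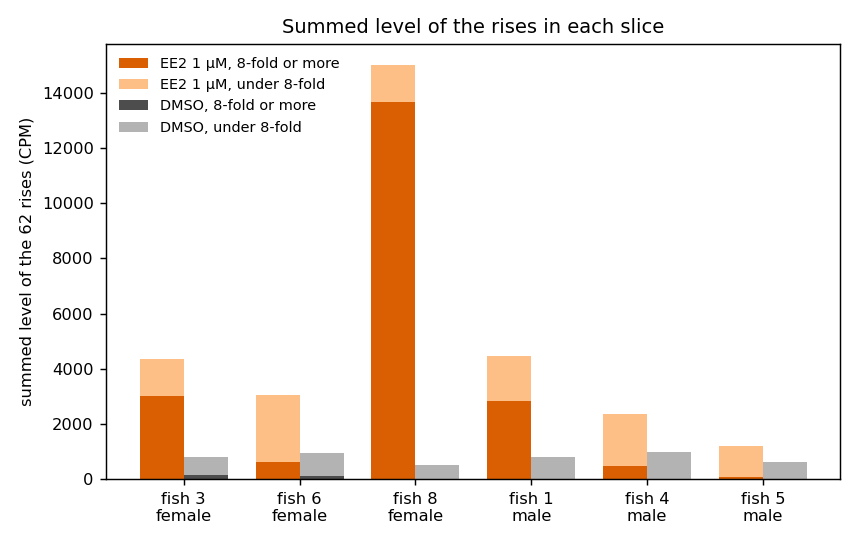
Summed level of the 62 rises in CPM (vertical axis) in each fish with both slices, with the EE2 1 µM slice as the left bar and the DMSO slice as the right bar, each split into rises of 8-fold or more (dark) and smaller ones (pale). In the EE2 1 µM bars the pale part runs from 1122 to 2402 CPM and is most of the bar in fish 4, 5 and 6, while the dark part runs from 89 to 13678 CPM.

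The response of females and males was compared over 3 fish of each sex. The mean change over the 62 rises was 2.61 ± 0.26 (SD, n = 3) in females and 2.56 ± 0.66 (SD, n = 3) in males. Over the large rises it was 3.78 ± 0.51 in females and 3.71 ± 1.17 in males, and over the smaller rises 1.37 ± 0.14 in females and 1.35 ± 0.24 in males (SD, n = 3 each). The mean difference between the sexes was smaller than the SD over fish within either sex. By the median over the 62, the changes were 2.56, 2.23 and 1.27 in the females 3, 6 and 8 and 1.78, 2.49 and 1.57 in the males 1, 4 and 5, so the sexes overlapped. Fitted within each sex, all 62 changes were above 0 in females and in males. In females 20 transcripts rose and 0 fell, 0.112% of those tested, and in males 22 rose and 0 fell, 0.123%. At an unadjusted p under 0.05, 91 transcripts were lower in females and 309 in males, each fewer than that threshold alone would give. All 20 and all 22 were among the 62, and 17 were called in both sexes. The 62 were selected from these same fish, so the shared direction and these overlaps are in part fixed by the selection.

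The difference between the sexes was itself tested as a term of the fit. It passed for 0 of 17824 transcripts in edgeR, where 235 had an unadjusted p under 0.05, and for 0 in limma and 1 in DESeq2. Among the 62 rises the response was larger in females for 31 and the median difference was -0.05, with 1 at an unadjusted p under 0.05. It was larger in females for 12 of the 32 large rises, with median changes of 4.82 in females and 5.32 in males, and for 19 of the 30 smaller ones, with medians of 1.19 in females and 1.35 in males. Precision limits this reading: the absolute difference had a median of 1.10 on the log2 scale for the large rises, with a median SE of 1.75, and of 0.32 for the smaller ones, with a median SE of 0.43. For ENSGMOT00000018724.1 the log2 fold change was 5.08 ± 1.29 (SE) in females and 5.87 ± 1.12 (SE) in males, and the difference of -0.78 had an SE of 1.55. For ENSGMOT00000013453.1 it was 3.90 ± 1.49 (SE) in females and 6.61 ± 1.48 (SE) in males, and the difference of -2.71 had an SE of 2.0.

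The base level of the rises was also read by sex. Summed over the 32 large rises, the DMSO slices held 145 CPM in fish 3, 111 in fish 6 and 25.7 in fish 8, all female, and 10.6 to 29.5 CPM in the 5 males. Of the 111 CPM in fish 6, 90.1 CPM came from ENSGMOT00000013453.1 alone, so the higher sum there rested on 1 transcript. Fish 8 lay within the range of the males. Of the 32, 13 passed the filter over the DMSO slices alone, and the fitted level of all 13 was higher in females, with a median log2 difference of 1.65. That filter was by sex, so a transcript low in males could pass through the 3 female slices. The share of all tested transcripts that was higher in females was not counted, so no excess is read from these counts. The 13 are not separate cases, since those of 5052, 4926 and 4971 bases went closely together. Some rested on fish 3: rank 15 was at 42.2 CPM there, against 1.73 CPM in fish 6, 1.35 CPM in fish 8 and 0.574 to 1.68 CPM in males. Of the 30 smaller rises 17 were higher in females, with a median of 0.06. No single transcript differed past the threshold: 0 of 16813 passed in edgeR, 338 had an unadjusted p under 0.05, and 4 of these were among the 43 rises tested. For ENSGMOT00000013453.1 females exceeded males by 4.04 ± 1.16 log2 units (SE, edgeR adjusted p = 1). The EE2 1 µM change is measured from this base.

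**Figure D5:**
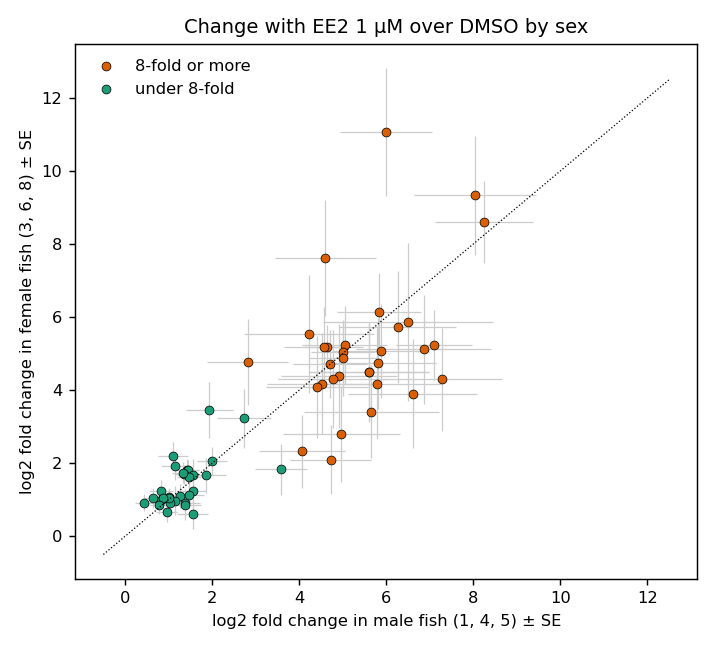
Log2 fold change with EE2 1 µM over DMSO in females (vertical axis, fish 3, 6 and 8) against that in males (horizontal axis, fish 1, 4 and 5) for the 62 rises, with bars of 1 SE, orange for rises of 8-fold or more and green for smaller ones. Points scatter on both sides of the dotted line of equal change, 31 above it, and the bars of the large rises are wide.

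The same transcripts were read at the lower dose. The 62 were higher with EE2 1 µM than with EE2 10 nM for 52 of them, with a median difference of 0.31 log2 units, from -0.74 to 1.36, while over all tested transcripts the median was -0.00 and 49.8% were above 0. The 62 were selected by the EE2 1 µM libraries, so a higher value in those libraries is in part fixed by the selection. None of the 17824 transcripts passed the test of this dose difference in edgeR, and 239 had an unadjusted p under 0.05, 2 of them among the 62. For ENSGMOT00000018724.1 the log2 dose difference was 0.72 ± 0.82 (SE), and for the 651 base transcript of rank 42 it was 0.27 ± 0.20 (SE). Against the same DMSO slices, 46 of the 62 passed with EE2 10 nM, with a median log2 fold change of 2.72, where 0.281% of all tested transcripts rose and 0.00561% fell. ENSGMOT00000018724.1 averaged 882 CPM ± 1240 (SD, n = 7) with EE2 10 nM, between 35.5 and 3523 CPM.

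With BaP and no EE2, none of the 62 passed. Against the shared DMSO slices, 0 of the 62 passed in edgeR with BaP 1 µM, where 0.0673% of all tested transcripts rose. Of the 62, 6 had an unadjusted p under 0.05, 33 were above 0 and the median log2 fold change was 0.08. With BaP 10 nM 0 passed, 4 had an unadjusted p under 0.05, and the median was 0.02. The share of all tested transcripts was not counted for BaP 10 nM, nor at the unadjusted threshold for BaP 1 µM. These counts are therefore a description, and no excess or lack is read from them. The edgeR adjusted p among the 62 was at least 0.191 with BaP 1 µM and 0.251 with BaP 10 nM. The transcript of 492 bases, rank 4, was high without passing. Its log2 fold change was 5.65 ± 1.37 (SE) with BaP 1 µM and 6.98 ± 1.32 (SE) with BaP 10 nM, beside 6.43 with EE2 1 µM. With BaP 1 µM its median was 0.0184 CPM and its highest value 2.7 CPM. Mix 1 µM exceeded BaP 1 µM for it by 1.19 ± 0.98 log2 units (SE, edgeR adjusted p = 0.999). With Mix 1 µM, which holds EE2 at the same dose together with BaP, 51 of the 62 passed against DMSO, with a median log2 fold change of 3.07, where 0.37% of all tested transcripts rose and 0.0393% fell.

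Mix 1 µM against BaP 1 µM sets slices with EE2 against slices without it and shares no slice with the contrast of EE2 1 µM and DMSO. The slices come from the same fish, and both contrasts come from one fit, in which all 47 libraries set the fish terms, the spread and the filter, so they are not independent. Of the 62 rises 44 passed in that comparison, where 0.269% of all tested transcripts rose and 0.0337% fell, and all 62 were above 0 with a median log2 fold change of 2.57. Over all tested transcripts the median was 0.03. The large rises passed in 28 of 32 cases with a median of 5.21, and the smaller ones in 16 of 30 with a median of 0.98. ENSGMOT00000018724.1 had a difference of 6.09 ± 0.95 log2 units (SE, edgeR adjusted p = 0.000172) and averaged 2990 CPM ± 5159 (SD, n = 6) with Mix 1 µM and 10.3 CPM with BaP 1 µM. ENSGMOT00000013453.1 differed by 5.44 ± 1.16 log2 units (SE, edgeR adjusted p = 0.0156). The 1188 base transcript differed by 5.21 ± 0.44 log2 units (SE, edgeR adjusted p = 3.28e-10), beside its rise of 4.85 with EE2 1 µM alone. Of the 62, 24 passed without fish 3 and 12 without the fish block. Per fish, the mean Mix 1 µM minus BaP 1 µM difference over the 62 was 3.23 in fish 3, 2.61 in fish 6, 2.01 in fish 4 and 1.86 in fish 5. By this mean, fish 5 was the lowest and fish 3 the highest of these 4, as with EE2 1 µM against DMSO. Fish 2 also gave both slices of this pair, but had no EE2 1 µM slice and was left out of these means.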

How the data were processed

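Per the labels' protocols, a stranded mRNA kit and paired-end sequencing were used. The submitters' processing notes name FastQC 0.11.5, SAMtools 1.4.1 and HISAT2 2.1.0. Build and aligner options: not given in the sources used here. The deposited tables give, per transcript, a length and a raw count of mapped read segments. Whether both mates of a fragment are in that count was not stated in the labels, and near-identical transcripts could share reads. Lengths were multiples of 3 for 99.99% of transcripts and are called coding lengths. Segments on no transcript, 42% to 49.2% of a library with EE2 1 µM and 41.8% to 49.7% with DMSO, were left out throughout. The replicates are separate fish. No pair of libraries had identical counts.

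Counts were tested by quasi-likelihood in edgeR 4.0.16 (R 4.3.3), in one fit of treatment and fish over all 47 libraries, with TMM factors and the default filter by group (minimum count 10, minimum total 15), which kept 17824 transcripts. The threshold was a Benjamini-Hochberg adjusted p of 0.05. Standard errors (SE) were derived from the log2 fold change and its F statistic. The fit holds no term for a response that differs between fish, and its spread is pooled over all 47 libraries. The SE and adjusted p therefore do not measure the spread of the EE2 1 µM response over fish. Sex by treatment was a term of a second fit, and female and male DMSO slices were fitted alone. Levels are CPM on TMM-scaled libraries, and changes per fish are log2 CPM with a prior count of 2. DESeq2 1.42.0 and limma 3.58.1 served as alternatives. The tests were checked on simulated data. Changes were set there into well-counted transcripts alone and were equal in every fish changed. That check does not cover near-silent transcripts or rises that vary over fish.

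Fish was a block because a number carried the same sex and body and liver weight in every group. The EE2 1 µM and DMSO slices of a fish deviated together from their group means, with correlations of 0.446 to 0.832. Over all libraries the mean was 0.626 within fish, with a lowest value of -0.0389, and -0.0958 between fish. Deviations from a group mean cancel within the group, so a negative mean between fish is in part built in.

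Base level classes were cut at 0.1, 1, 10 and 100 CPM. Transcripts were named by a rule: the 4 largest and the smallest rise of each base class, the 3 largest and 3 smallest SDs over fish, the 5 highest EE2 1 µM levels and those lower in some fish. Since no table gives names, identifiers are printed for 2 rises, the one most abundant with EE2 1 µM and the largest other one from at least 1 CPM. The members, lists, classes and tests were chosen with earlier results of these data known. Pathway and marker lists could not be applied, and no sequence was used here.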

Additional observations from a re-analysis of the deposited data

Results flagged for a closer look

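Of 41 groups of values checked for 1 value far from the others, 5 had one. Chance flags about 1 in 20 groups when values are normally distributed. Levels in CPM were skewed here and can be flagged more often, so the 5 are not read as an excess.

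In the EE2 1 µM slices, fish 8 had the outlying values. Its summed level of the 62 rises was 15017 CPM, against at most 4462 CPM in the other 5 fish. Its level of ENSGMOT00000018724.1 was 9751 CPM, and that transcript made up 64.9% of the sum, so these are not separate cases. In the same fish the 384 base transcript, rank 37, had a change of 0.00 on the log2 scale, against 1.70 to 2.52 in the other 5 fish.

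In the DMSO slices, females had the outlying values. ENSGMOT00000018724.1 was at 52.9 CPM in fish 3, against at most 14.1 CPM in the other 7 slices. ENSGMOT00000013453.1 was at 90.1 CPM in fish 6, against at most 12.1 CPM in the other 7. No cause was tested for any of them.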

How the results depend on the processing

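Against 62 rises and 32 of 8-fold or more, limma with fish as a random effect gave 38 and 14, the fit without the replicate block 16 and 10, the fit of the EE2 1 µM and DMSO libraries alone 25 and 8, and the fit of the 6 fish with both slices 26 and 8. The cause was not tested, though these last fits hold fewer libraries. Leaving out each fish gave 46 to 66 rises and 25 to 33 large ones. DESeq2 gave 76 rises, the stricter filter 51 and the fit without the 4 libraries that stood apart 83. Of the 62, 6 passed in all 19 other settings and 35 without each fish in turn. Against 0 falls, DESeq2 gave 4, upper quartile factors 2, the fit without the 4 libraries 6 and leaving out each fish 0 to 3. The sex difference gave 0 in all settings but DESeq2, with 1. Mix 1 µM against BaP 1 µM called 44 of the 62, 12 without the replicate block and 24 to 45 without a fish. With the median over DMSO slices, 1 rise in place of 2 had a base of 100 CPM or more. The mean change per fish, 2.59, was 2.98 with a prior count of 0.5 and 2.31 with 5. No named rise changed direction: of 554 values for 30 transcripts, 423 kept the call and 131 lost it. The fit without the DMSO slice of fish 2 was chosen after seeing the data. DESeq2, limma and the 2 smaller fits were not run for the dose and Mix comparisons. Depth limits the near-silent transcripts, where 1 segment changes a fold.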
